A study of Homo sapiens with 12 samples.

Results

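The genes of the mitochondrial genome were described in LNCaP, a human prostate cancer line that responds to androgen, after USP22 was overexpressed or depleted. USP22 is the ubiquitin protease of the SAGA coactivator complex. Members were the rows of the deposited count table whose Ensembl ID maps to a symbol beginning with MT-, which gave 37 of 63677 rows: 13 protein-coding genes, 2 ribosomal RNA genes and 22 transfer RNA genes. The 12 libraries formed 4 groups of 3. One was LNCaP with USP22 overexpression and was set against the vector control pLPLUC, and for these 2 groups the labels give no doxycycline. The next was LNCaP with shRNA-mediated USP22 depletion, made with the single hairpin shUSP22-4693, and was set against shRNA-control. In both shRNA groups doxycycline, at 1 ug/mL, was given for 5 days and renewed every 48 hours, and all cells grew in hormone-proficient medium.

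The mitochondrial genome is a small circle that is read from both strands into long precursors. Transfer RNAs punctuate most of these precursors, and cutting them out frees the messenger and ribosomal RNAs. Its proteins are core subunits of respiratory chain complexes I, III and IV and of the ATP synthase, complex V, while nuclear genes encode the polymerase and all RNA processing factors. The heavy-strand precursor holds most members, and MT-ND6 is the only protein-coding gene of the light-strand precursor, together with 8 transfer RNAs. Total RNA was purified on silica columns, which keep little RNA of transfer RNA size, and the library kit is of a type that removes cytoplasmic and mitochondrial ribosomal RNA before sequencing. Levels of both ribosomal members are therefore those left after removal. In bulk RNA, fewer cells of a kind and less RNA per cell cannot be told apart, and neither can fewer mitochondrial genomes and less RNA from each.

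Libraries held 77607469 to 103690001 counted reads. Whether replicates came from separate cultures is not stated in the labels, so the spread that p-values rest on may be technical. USP22 followed its labels, with 1466 ± 52.2 CPM (reads per 1e6 counted reads) after overexpression and 512.5 ± 45.9 CPM in the vector control, and with 258 ± 7.38 CPM after depletion and 478 ± 3.65 CPM in the shRNA control (SD, n = 3 each). All 9 markers of LNCaP luminal cells exceeded 1 CPM in every library. The defining markers of leucocytes, PTPRC and CD3E, and of endothelium, PECAM1 and CDH5, reached at most 0.143 CPM, and only COL1A1 of 4 fibroblast markers and VWF of 3 endothelial markers exceeded 1 CPM in all libraries. Summed, the 3 endothelial markers reached up to 10.8 CPM after overexpression, against up to 13.4 CPM in the vector control. After depletion they reached 11.9 to 14.7 CPM, against 6.63 to 7.69 CPM in the shRNA control, nearly all of it VWF, while PECAM1 was at 0 in every library. The 6 markers of other epithelial lines, led by KRT14, had sums of 0.998 to 1.45 CPM after overexpression, against 1.05 to 1.16 CPM in the vector control. Their sums were at most 3.61 CPM after depletion, against 3.73 to 4.17 CPM in the shRNA control. The fibroblast sums overlapped within both pairs, and the luminal sums were lower after overexpression (4700 to 4860 CPM) than in the vector control (5010 to 5360 CPM) and lower after depletion (4590 to 5100 CPM) than in the shRNA control (6430 to 6630 CPM). The part of these markers in the results was not tested. Vector control replicate 3 stood apart from its group mates, and counts of calls in the comparisons that use the vector control are also given without it.

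The protein-coding members took about 1 percent of all counted reads. Their summed share was 0.976, 0.957 and 0.990% in USP22 overexpression replicates 1, 2 and 3, against 0.844, 0.875 and 0.529% in the vector control. It was 1.00, 1.00 and 1.13% after USP22 depletion, against 0.808, 0.865 and 0.924% in the shRNA control. Within each pair the groups did not overlap, and the 3 control libraries lay below the 3 libraries with altered USP22 in both directions of change. Without vector control replicate 3 the vector control mean was 0.860%, against 0.974 ± 0.0168% after overexpression (SD, n = 3). These sums are a description and carry no test.

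The 2 ribosomal RNA genes together held 0.330, 0.349 and 0.460% of reads after overexpression, against 0.179, 0.356 and 0.147% in the vector control. They held 0.243, 0.430 and 0.378% after depletion, against 0.256, 0.516 and 0.260% in the shRNA control. Groups overlapped in both pairs, and the 3.51-fold range over the 12 libraries was wider than the 2.13-fold range of the protein-coding share. Transfer RNA genes held 0.0130 to 0.0149% of reads after overexpression and 0.0111 to 0.0145% in the vector control, 2 ranges that overlapped. They held 0.0154 to 0.0209% after depletion and 0.0114 to 0.0143% in the shRNA control, with no overlap. Nuclear genes for small nucleolar and small nuclear RNAs held 1.04, 0.604 and 1.18% of reads after depletion, against 0.511, 0.835 and 0.538% in the shRNA control. The part of this share in the result was not tested.

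**Figure D1:**
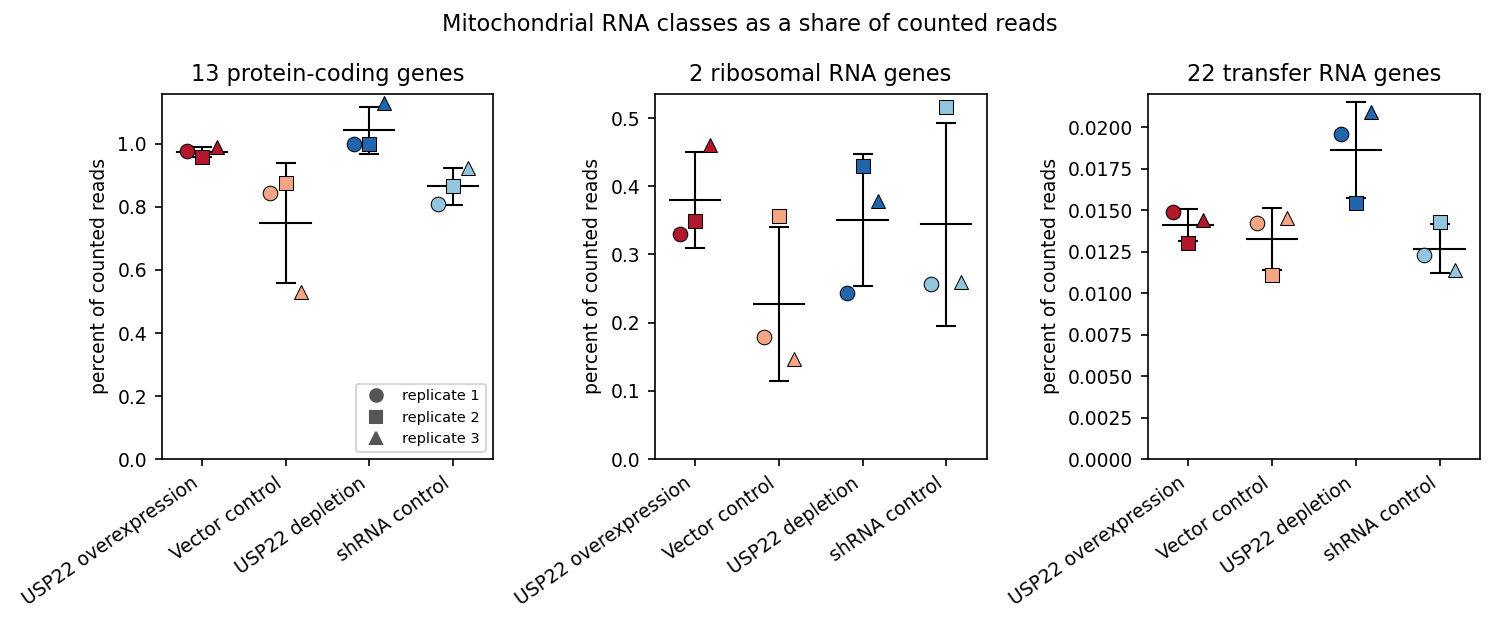
Percent of counted reads in the 13 protein-coding, 2 ribosomal RNA and 22 transfer RNA genes of the mitochondrial genome, for each library of USP22 overexpression, vector control, USP22 depletion and shRNA control; symbols are replicates, lines the mean and bars the SD (n = 3). Vector control replicate 3 has the lowest protein-coding share, 0.529%, while its transfer RNA share, 0.0145%, lies within the range of the other libraries.

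Levels of the protein-coding members differed by far more than any group difference. Per kb of gene, the mean over all libraries ran between 3350 CPM per kb for MT-CO3, a core subunit of complex IV (cytochrome c oxidase), and 40.3 CPM per kb for MT-ND6, a subunit of complex I (NADH dehydrogenase), an 83.2-fold span. All 3 complex IV subunits led, with MT-CO1 at 2190 and MT-CO2 at 1370 CPM per kb, and this order held in 12 of 12 libraries. MT-CYB, the cytochrome b of complex III, followed at 399.5 CPM per kb, close to MT-ATP6 at 391 CPM per kb, which encodes subunit a of the ATP synthase. The complex I genes MT-ND3, MT-ND4 and MT-ND4L lay next at 385, 378 and 340 CPM per kb. Neighbours within this middle set did not keep their order: MT-CYB exceeded MT-ATP6 in 5 of 12 libraries and MT-ND3 exceeded MT-ND4 in 7 of 12. MT-ND5 and MT-ND1 at 182 and 178 CPM per kb exchanged places in 6 of 12 libraries. MT-ND2 at 101, MT-ATP8 at 82.3 and MT-ND6 closed the order in all 12. The span between MT-CO3 and MT-ND6 was 86.2-fold after overexpression and 75.7-fold in the vector control, and 87.6-fold after depletion and 82.7-fold in the shRNA control.

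**Figure D2:**
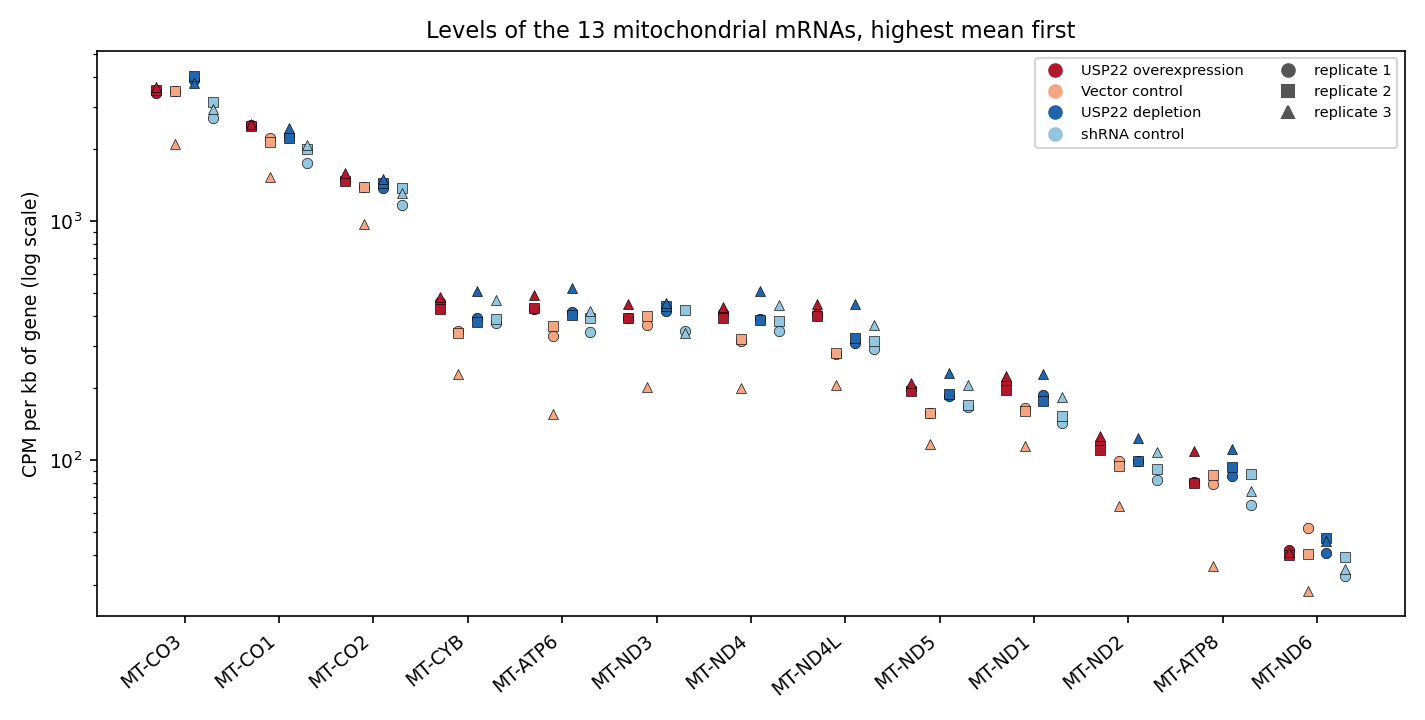
Level of each mitochondrial protein-coding gene in CPM per kb of gene (log scale), highest mean first; within a gene the groups stand as USP22 overexpression, vector control, USP22 depletion and shRNA control, and symbols are replicates. MT-CO3, MT-CO1 and MT-CO2 lie above all other genes in every library, and vector control replicate 3 is the lowest point of each gene.

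Some of these genes share bases, which can blur their counts. MT-ATP8 and MT-ATP6, whose products sit together in the ATP synthase, are read from a single messenger RNA and overlap by 46 bases, 22.2% of MT-ATP8. MT-ND4L and MT-ND4 likewise share a messenger RNA and 7 bases. How reads on shared bases were assigned is not given in the sources used here. The sequence of MT-ATP8 (heavy-strand gene of the mitochondrial chromosome) is given from the GENCODE 29 reference, not from the cells, and capitals mark the bases that also belong to MT-ATP6, beginning with the start codon of MT-ATP6.
MT-ATP8: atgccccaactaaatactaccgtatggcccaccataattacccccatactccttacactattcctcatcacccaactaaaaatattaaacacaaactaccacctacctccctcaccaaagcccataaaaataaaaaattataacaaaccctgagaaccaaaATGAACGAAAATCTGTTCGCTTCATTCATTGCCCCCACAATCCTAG
Reads of MT-ATP6 per read of MT-ATP8 numbered 16.7 ± 1.59 after overexpression and 13.9 ± 0.300 in the vector control, and 15.3 ± 0.995 after depletion and 16.9 ± 1.97 in the shRNA control (SD, n = 3 each).

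The first comparison asked how raised USP22 changed these RNAs. With USP22 overexpression, 5 of the 25 tested members rose and none fell: MT-ND1, MT-ND4, MT-ND4L and MT-ND5 of complex I, and MT-CYB of complex III. Over all 26076 tested genes 1.51% rose. The log2 fold changes of all 13 protein-coding genes were positive, with a median of 0.46 (1.37-fold), where the median over all tested genes was -0.01. No complex IV or ATP synthase gene, no ribosomal RNA and no transfer RNA passed the test.

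MT-ND4L stood at 121, 119 and 134 CPM in overexpression replicates 1, 2 and 3, against 82.4, 83.4 and 61.0 CPM in the vector control. Every overexpression library exceeded every vector control library. The rise was 1.65-fold, a log2 fold change of 0.72 (SE 0.14, adjusted p = 0.00562). MT-ND5 stood at 357, 353 and 379 CPM after overexpression, against 285, 284 and 211 CPM in the vector control (log2 fold change 0.48, SE 0.11, adjusted p = 0.0244). MT-ND1 stood at 200.1, 186.5 and 214 CPM after overexpression, against 157, 152 and 109 CPM in the vector control (log2 fold change 0.52, SE 0.13, adjusted p = 0.0298). For both genes the groups were apart, and vector control replicate 3 was the lowest library of the 6. MT-ND4 stood at 567, 541 and 603 CPM after overexpression, against 433, 442 and 275 CPM in the vector control (log2 fold change 0.57, SE 0.15, adjusted p = 0.0422). MT-CYB stood at 523, 489 and 549 CPM after overexpression, against 396, 388 and 262 CPM in the vector control (log2 fold change 0.58, SE 0.14, adjusted p = 0.0275). Here too no vector control library reached the overexpression range.

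The complex IV genes did not pass the test. MT-CO1 averaged 3896 ± 51.6 CPM after overexpression and 3040 ± 587 CPM in the vector control (log2 fold change 0.36, SE 0.10, adjusted p = 0.0693). MT-CO2 averaged 1032 ± 44.1 CPM after overexpression and 854 ± 163 CPM in the vector control (0.27, SE 0.10, adjusted p = 0.171), and MT-CO3 averaged 2769 ± 88.9 CPM after overexpression and 2378 ± 638 CPM in the vector control (0.22, SE 0.13, adjusted p = 0.405). The large SD of the vector control came with its replicate 3, which held 1642 CPM of MT-CO3 where replicates 1 and 2 held 2743 and 2749 CPM. MT-ATP6 averaged 307 ± 24.5 CPM after overexpression and 192.5 ± 76.1 CPM in the vector control (log2 fold change 0.67, SE 0.21, adjusted p = 0.0882), and MT-ATP8 18.6 ± 3.42 CPM after overexpression and 13.9 ± 5.69 CPM in the vector control (0.41, SE 0.23, adjusted p = 0.356). Of the remaining complex I genes, MT-ND2 had a log2 fold change of 0.46 (SE 0.14, adjusted p = 0.0774) and MT-ND3 one of 0.35 (SE 0.17, adjusted p = 0.29). MT-ND6, the light-strand gene, averaged 21.5 ± 0.490 CPM after overexpression and 21.0 ± 6.16 CPM in the vector control, a log2 fold change of 0.03 (SE 0.15, adjusted p = 0.941).

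In 10 of the 25 tested members, 9 protein-coding genes and the asparagine transfer RNA gene MT-TN, all overexpression libraries exceeded all vector control libraries, where 9.64% of all tested genes did so. Without vector control replicate 3 the members apart were the same 10, against 17.2% of all genes. Leaving out a library cannot undo such a separation, so this is no check on that library. That fit of 11 libraries called 8 members higher and none lower, with 2.8% of 26896 tested genes called higher and 4.05% lower, and it lowered the protein-coding median to 0.28. MT-ND4L then had a log2 fold change of 0.59 (adjusted p = 0.00128), MT-CYB one of 0.41 (0.00911), MT-ND5 one of 0.35 (0.00995), MT-ND1 one of 0.37 (0.0127) and MT-ND4 one of 0.38 (0.0165). MT-CO1, MT-ATP6 and MT-TN joined the calls, at 0.20, 0.38 and 0.33. MT-CO3 then stood at 0.01 (adjusted p = 0.948) and MT-ND6 at -0.17 (adjusted p = 0.328). MT-CO2, MT-ATP8, MT-ND2 and MT-ND3 stood at 0.12, 0.11, 0.28 and 0.10 in that fit, and none of them passed.

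The 5 calls were not equally stable. By an unadjusted p under 0.05, edgeR had 11 members, and DESeq2 and limma voom called 8 and 5 higher and none lower at an adjusted p under 0.05. MT-ND4L kept its call in 21 of 21 alternatives, with an adjusted p of at most 0.034. The count of called members was 1 when any of overexpression replicates 1, 2 and 3 was left out or when the 6 compared libraries were fitted alone, and 8 when any of vector control replicates 1, 2 and 3 was left out. Apart from the fit without vector control replicate 3, no share of all genes is given beside these counts. They therefore do not show whether the members stood out under those rules.

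**Figure D3:**
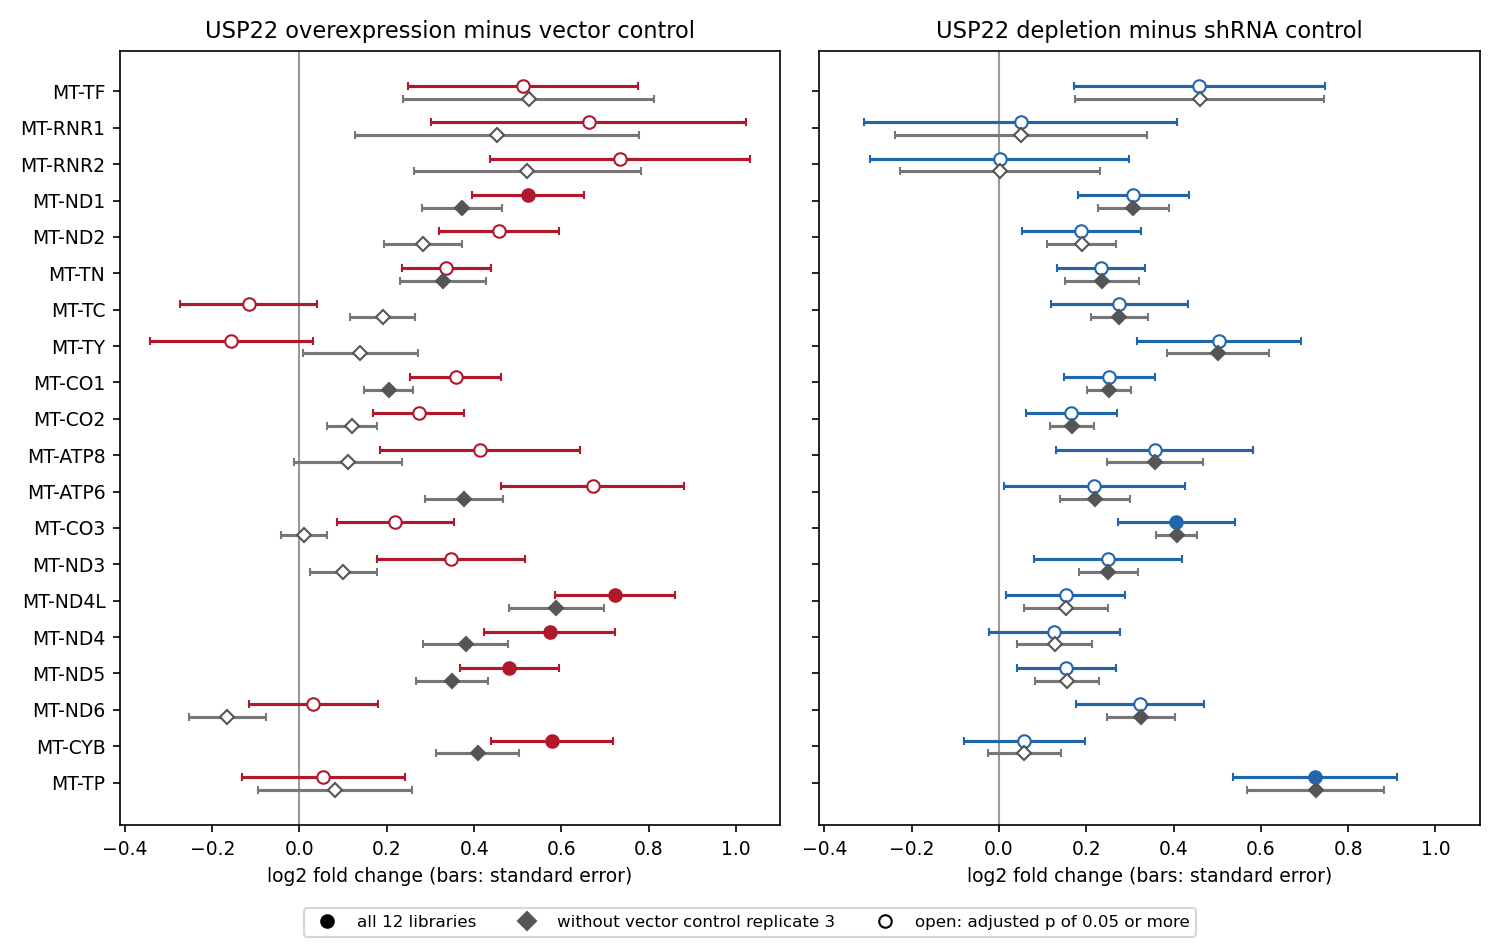
Log2 fold change with its standard error for the protein-coding and ribosomal RNA genes and the 5 named transfer RNA genes, in genome order, for USP22 overexpression minus vector control (left) and USP22 depletion minus shRNA control (right); coloured circles are from all 12 libraries, grey diamonds from the fit without vector control replicate 3, and filled symbols have an adjusted p under 0.05. On the left MT-ND4L, MT-CYB, MT-ND4, MT-ND1 and MT-ND5 are filled in both fits, and on the right 2 genes, MT-TP and MT-CO3, are filled in the fit of all libraries.

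The make-up of the protein-coding reads differed in the vector control. Shares within this pool sum to the whole, so a higher share of some genes lowers the rest. The 7 complex I genes took 15.3, 14.9 and 15.7% of the pool after overexpression, against 13.5, 13.7 and 13.8% in the vector control. They took 14.6, 14.6 and 17.0% after depletion, against 16.3, 15.6 and 17.3% in the shRNA control. The vector control was thus below each of the other 9 libraries, its replicate 3 included, while the depletion and shRNA control groups overlapped. MT-CYB took 5.16 ± 0.181% after overexpression and 4.41 ± 0.0503% of the pool in the vector control, and 4.87 ± 0.591% after depletion and 5.64 ± 0.446% in the shRNA control (SD, n = 3 each). Complex IV genes took 75.6 to 77.0% after overexpression and 78.9 to 79.8% in the vector control, and 73.9 to 78.0% after depletion and 73.2 to 75.9% in the shRNA control. MT-ND4L took 1.22, 1.21 and 1.28% after overexpression, against 0.916, 0.940 and 1.04% in the vector control. No test was run on these shares.

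The second comparison asked how lowered USP22 changed the same RNAs. With USP22 depletion, 2 of the 25 tested members rose and none fell: MT-CO3 and the proline transfer RNA gene MT-TP. Over all tested genes 9.4% rose, so the members were called at a share near that of the whole table. The log2 fold changes of all 13 protein-coding genes were positive, with a median of 0.22 (1.16-fold), where the median over all tested genes was 0.00.

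MT-CO3 stood at 3041, 3160 and 2963 CPM in depletion replicates 1, 2 and 3, against 2119, 2478 and 2316 CPM in the shRNA control. All depletion libraries exceeded all shRNA control libraries, and the log2 fold change was 0.41 (1.33-fold, SE 0.13, adjusted p = 0.0432). MT-TP stood at 128, 82.0 and 131 CPM after depletion, against 64.7, 89.3 and 52.4 CPM in the shRNA control. Its groups overlapped, because depletion replicate 2 lay below shRNA control replicate 2. The log2 fold change was 0.72 (1.65-fold, SE 0.19, adjusted p = 0.0115). Among these 6 libraries depletion replicates 1 and 3 were highest and shRNA control replicates 1 and 3 lowest both in MT-TP and in the share of small nucleolar and small nuclear RNA reads, and the part of that share in the call was not tested.

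The other complex IV genes had smaller values that did not pass. MT-CO1 averaged 3572 ± 183 CPM after depletion and 2998 ± 264 CPM in the shRNA control (log2 fold change 0.25, SE 0.10, adjusted p = 0.109), and MT-CO2 984 ± 41.1 CPM after depletion and 877 ± 71.2 CPM in the shRNA control (0.17, SE 0.10, adjusted p = 0.312). MT-ND1, MT-ND2 and MT-ND3 had log2 fold changes of 0.31, 0.19 and 0.25 with adjusted p of 0.109, 0.392 and 0.354. None of the 5 genes called on overexpression passed here. MT-ND4L averaged 107 ± 23.0 CPM after depletion and 96.2 ± 11.5 CPM in the shRNA control (0.15, adjusted p = 0.503), and MT-ND4 589 ± 100.3 CPM after depletion and 539 ± 69.1 CPM in the shRNA control (0.13, adjusted p = 0.628). MT-ND5 averaged 365 ± 46.8 CPM after depletion and 328 ± 40.4 CPM in the shRNA control (0.15, adjusted p = 0.398). MT-CYB averaged 487 ± 83.3 CPM after depletion and 468 ± 56.4 CPM in the shRNA control (0.06, adjusted p = 0.835). Depletion replicate 3 and shRNA control replicate 3 were the highest libraries of their groups for MT-ND4L, MT-ND4, MT-ND5 and MT-CYB. MT-ATP6 had a log2 fold change of 0.22 (adjusted p = 0.535) and MT-ATP8 one of 0.36 (adjusted p = 0.318). MT-ND6 averaged 23.3 ± 1.75 CPM after depletion and 18.7 ± 1.82 CPM in the shRNA control, with groups apart (0.32, SE 0.15, adjusted p = 0.146).

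All depletion libraries exceeded all shRNA control libraries in 6 of the 25 tested members, MT-CO1, MT-CO2, MT-CO3, MT-ND6, MT-TC and MT-TY, where 20.3% of all tested genes did so. This comparison uses no vector control library, yet the spread estimated over all groups does. Without vector control replicate 3 its median of 0.22 was unchanged while 12 members were called higher, 8 of them protein-coding and 4 transfer RNA genes, with 15.2% of all genes called higher and 15.9% lower. MT-CO3 lost its call when any overexpression or any depletion library, or shRNA control replicate 1 or 3, was left out, with an adjusted p of up to 0.149. MT-TP lost its call without depletion replicate 3 (adjusted p = 0.0546) or shRNA control replicate 3 (0.0561). The count of called members was 0 without shRNA control replicate 3 and 1 with any single overexpression or depletion library or shRNA control replicate 1 left out, while in the fit of all libraries 7 members had an unadjusted p under 0.05 and DESeq2 and limma voom called 3 and 2, none lower. No share of all genes is given beside the counts of the last sentence. The 1 member called without depletion replicate 3 was neither MT-CO3 nor MT-TP.

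Among members averaging more than 1 CPM, the ribosomal RNA genes had the largest standard errors on overexpression and on depletion. MT-RNR2, the RNA of the large mitochondrial ribosomal subunit, stood at 3007, 3186 and 4296 CPM after overexpression, against 1695, 3171 and 1437 CPM in the vector control. Vector control replicate 2 reached the overexpression range and the other vector control libraries did not. The log2 fold change was 0.73 (SE 0.30, adjusted p = 0.199), and 0.52 (adjusted p = 0.288) without vector control replicate 3. MT-RNR2 stood at 2073, 3630 and 3109 CPM after depletion, against 2099, 4460 and 2239 CPM in the shRNA control, with a log2 fold change of 0.00 (SE 0.30, adjusted p = 0.997). In this pair both groups spanned a wide and shared range. MT-RNR1, the RNA of the small subunit, averaged 442 ± 97.9 CPM after overexpression and 279 ± 136 CPM in the vector control (0.66, SE 0.36, adjusted p = 0.346; 0.45 without vector control replicate 3), and 401 ± 138 CPM after depletion and 387 ± 230.1 CPM in the shRNA control (0.05, SE 0.36, adjusted p = 0.95). Both RNAs moved broadly together between libraries, with 6.82 to 9.81 reads of MT-RNR2 per read of MT-RNR1, highest in shRNA control replicate 3. Ribosomal reads per protein-coding read ranged between 0.212 in vector control replicate 1 and 0.597 in shRNA control replicate 2.

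Transfer RNA genes gave few reads, and 12 of the 22 were too low to be tested, with at most 11 reads in any library. MT-TI and MT-TR had none. The light-strand genes MT-TP, MT-TC, MT-TN and MT-TY, for the transfer RNAs of proline, cysteine, asparagine and tyrosine, held 98.9% of all 153098 transfer RNA reads. Their sequences are shown because nearly every read of the class was counted to them. They are written as DNA in the direction of the RNA, each a light-strand gene of the mitochondrial chromosome in the GENCODE 29 reference, and capitals mark the anticodon.
MT-TP: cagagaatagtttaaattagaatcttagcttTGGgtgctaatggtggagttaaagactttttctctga
MT-TC: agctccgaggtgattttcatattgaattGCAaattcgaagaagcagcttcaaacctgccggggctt
MT-TN: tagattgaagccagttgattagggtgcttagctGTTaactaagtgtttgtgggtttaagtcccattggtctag
MT-TY: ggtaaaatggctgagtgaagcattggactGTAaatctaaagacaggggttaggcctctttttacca
These 4 genes are 66 to 73 bases long, and MT-TP alone held 90046 reads, 58.8% of the class.

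The genes with reads had neighbours in common. MT-TP adjoins the control region, which holds no annotated gene, MT-TN and MT-TC flank an unannotated gap of 31 bases where light-strand replication starts, and MT-TY lies beside a gap of 12 bases. Counting MT-TF, the phenylalanine gene on the other side of the control region, and MT-TK, the lysine gene beside a gap of 25 bases, 6 transfer RNA genes adjoin the control region or a gap of at least 10 bases. They held 99.6% of transfer RNA reads, and the other 16, packed between genes, held 0.427%, with at most 222 reads each. Both sets have 4 light-strand genes. The gap minimum and MT-TK were chosen after these values were seen, gap sizes come from GENCODE 29, and whether reads that span a boundary of 2 genes were counted is not given in the sources used here. Its part in the result was not tested.

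**Figure D4:**
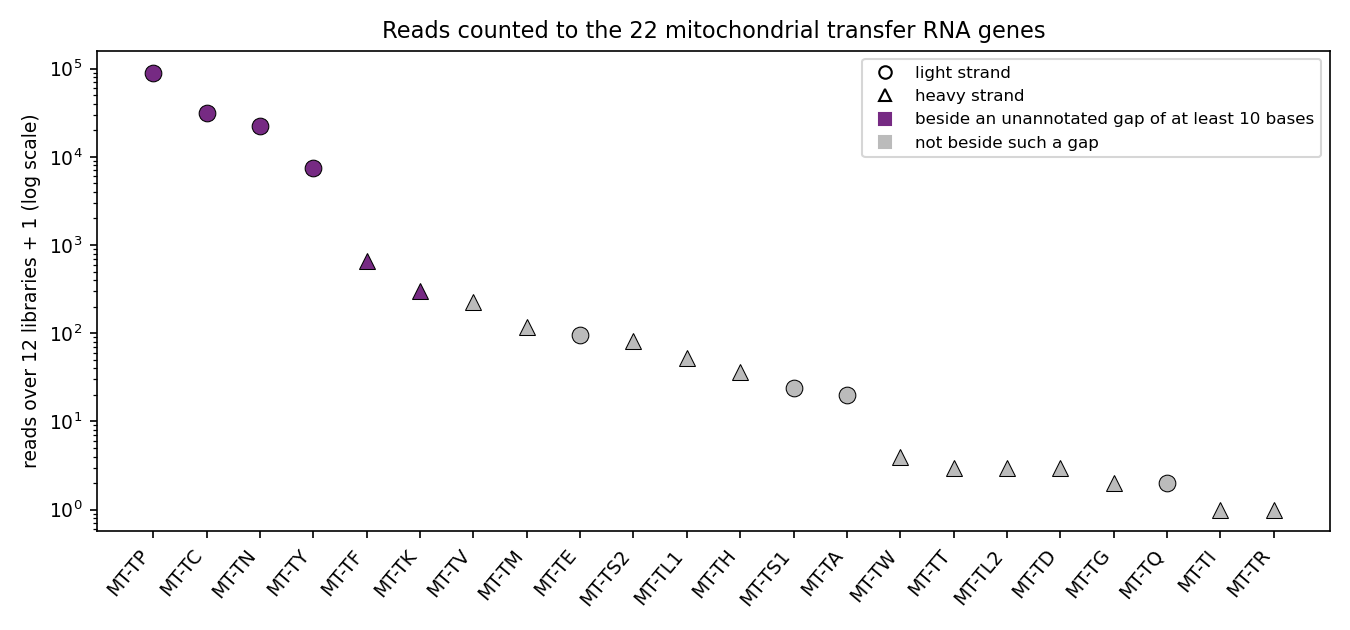
Reads counted to each mitochondrial transfer RNA gene over 12 libraries, plus 1 (log scale), highest first; circles are light-strand and triangles heavy-strand genes, and purple marks genes that adjoin the control region or an unannotated gap of at least 10 bases. The 6 purple genes are the 6 highest, between 90046 reads for MT-TP and 299 for MT-TK.

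On overexpression no transfer RNA gene passed the test. MT-TP averaged 82.6 ± 8.28 CPM after overexpression and 79.5 ± 14.1 CPM in the vector control (log2 fold change 0.05, adjusted p = 0.916). MT-TN stood at 22.4, 25.4 and 23.1 CPM after overexpression, against 21.2, 16.4 and 18.6 CPM in the vector control, with groups apart (0.34, SE 0.10, adjusted p = 0.0815). MT-TC and MT-TY had log2 fold changes of -0.12 and -0.16 (adjusted p of 0.743 and 0.705), and these signs turned to 0.19 and 0.14 without vector control replicate 3. MT-TY averaged 7.47 ± 1.34 CPM after depletion, against 5.26 ± 0.154 CPM in the shRNA control (0.50, SE 0.19, adjusted p = 0.0732), and MT-TC 31.7 ± 1.30 CPM after depletion, against 26.2 ± 1.81 CPM in the shRNA control (0.28, adjusted p = 0.257). MT-TN averaged 23.3 ± 2.80 CPM after depletion and 19.8 ± 1.52 CPM in the shRNA control (0.23, adjusted p = 0.128). MT-TF, at no more than 1.39 CPM in any library, had log2 fold changes of 0.51 (adjusted p = 0.315) on overexpression and 0.46 (adjusted p = 0.312) on depletion.

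Vector control replicate 3 differed by class of RNA and not by a common factor. All 13 protein-coding genes were lower in it than in each of the other 11 libraries, where 18.6% of all tested genes were, and stood at 0.432 to 0.742 times the mean of vector control replicates 1 and 2. MT-ATP8 and MT-ATP6 were the furthest down, at 0.432 and 0.448 times, and MT-RNR1 and MT-RNR2 stood at 0.595 and 0.591 times. The 10 tested transfer RNA genes did not share this drop. MT-TC at 45.7 CPM and MT-TY at 11.7 CPM were above all other libraries, 1.72 and 1.69 times the mean of replicates 1 and 2, while MT-TP, MT-TN and MT-TF stood at 1.06, 0.987 and 1.03 times. Of the low transfer RNA genes, named here after their values were seen, MT-TM at 0.254 CPM was also above all other libraries, MT-TE had no reads and was below them, and MT-TV, MT-TK and MT-TS2 lay within their range. Small nucleolar and small nuclear RNA genes took 1.94% of reads in this library, against 1.36 and 0.906% in vector control replicates 1 and 2. The part of these differences in the comparisons was not tested beyond leaving the library out.

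**Figure D5:**
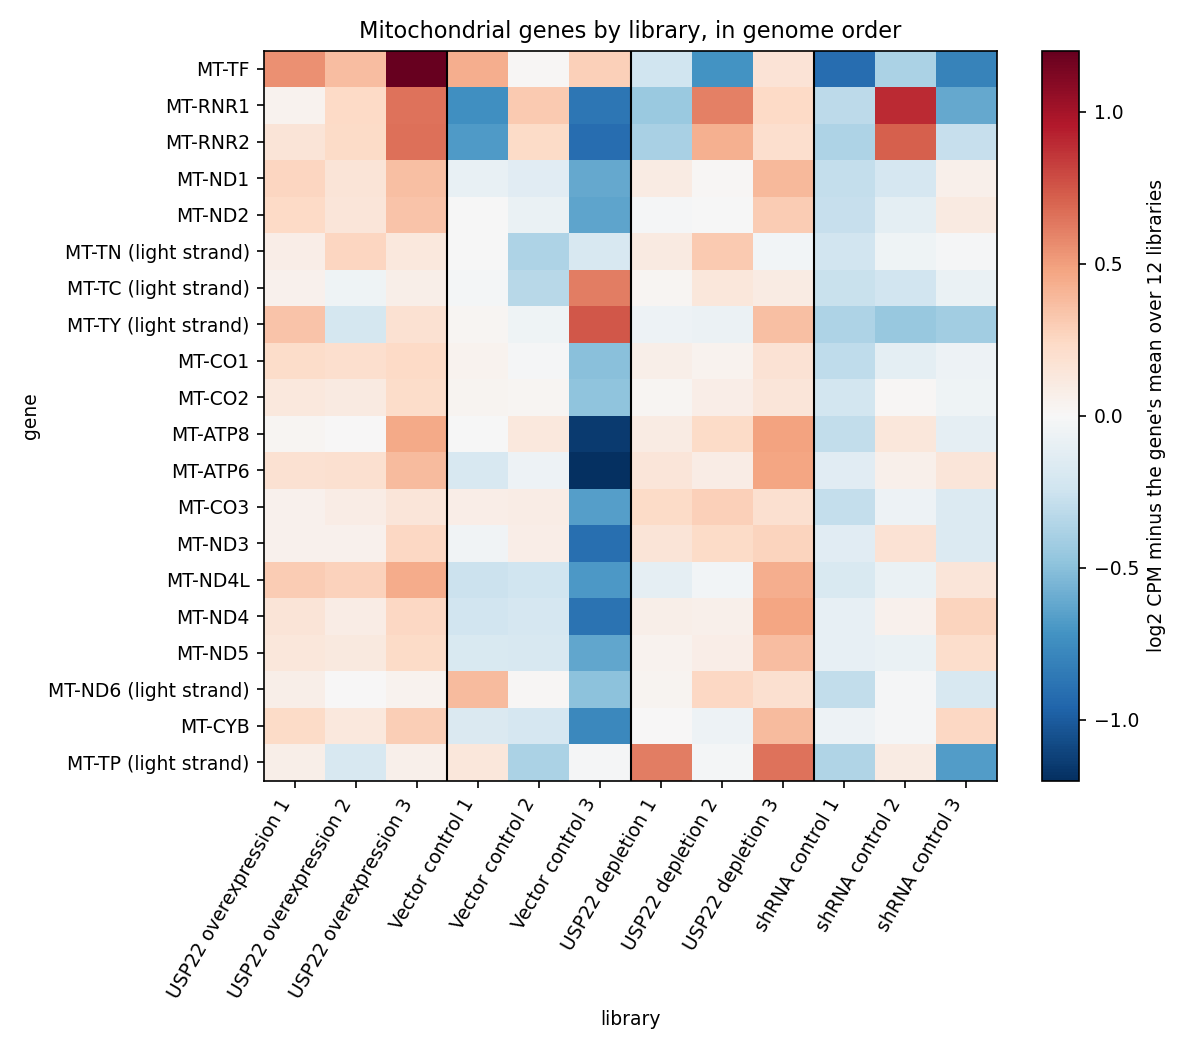
Log2 CPM of each protein-coding, ribosomal RNA and named transfer RNA gene (rows, in genome order) in each library (columns), minus the gene's mean over 12 libraries; red is above and blue below that mean. The column of vector control replicate 3 is blue for protein-coding and ribosomal RNA genes and red for MT-TC and MT-TY. The rows of MT-RNR1 and MT-RNR2 rank the libraries alike within each group, except for shRNA control replicates 1 and 3.

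The 2 control groups were set against each other, since they differ in construct and in doxycycline, an antibiotic known to inhibit protein synthesis on mitochondrial ribosomes. In the shRNA control, 3 of the 25 tested members were higher than in the vector control and 2 were lower, where 21.7% of all tested genes were higher and 21.3% lower. MT-ND4 stood at 476, 528 and 613 CPM in the shRNA control, against 433, 442 and 275 CPM in the vector control (log2 fold change 0.49, SE 0.15, adjusted p = 0.0144). MT-CYB had a log2 fold change of 0.42 (SE 0.14, adjusted p = 0.0211) and MT-ND5 one of 0.33 (SE 0.11, adjusted p = 0.0261). In all 3 genes the groups did not overlap. MT-TF averaged 0.369 ± 0.0751 CPM in the shRNA control and 0.705 ± 0.102 CPM in the vector control (-0.94, SE 0.28, adjusted p = 0.0133), and MT-TY 5.26 ± 0.154 CPM in the shRNA control and 8.54 ± 2.78 CPM in the vector control (-0.69, SE 0.19, adjusted p = 0.00684). The median of the protein-coding genes was 0.16, beside 0.02 over all tested genes. Groups were apart with the shRNA control higher in 4 members, where 25.6% of all tested genes were, and lower in 2, where 24.2% were.

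Without vector control replicate 3 the protein-coding median was -0.05. In that fit 2 members were higher and 5 lower in the shRNA control, with 23.6% of all genes higher and 22.3% lower. MT-ND4 and MT-CYB remained higher at 0.30 and 0.25 (adjusted p of 0.0138 and 0.0327), MT-ND5 at 0.20 no longer passed (0.0513), and MT-CO3 (-0.26), MT-CO1 (-0.17), MT-ND6 (-0.37), MT-TF (-0.93) and MT-TY (-0.40) were lower. The count of called members was 10 without vector control replicate 2 and 2 without shRNA control replicate 3, with no share of all genes given for these fits. The fibroblast markers summed to 15.2 to 16.3 CPM in the shRNA control, against 6.25 to 9.27 CPM in the vector control, nearly all of it COL1A1. The other epithelial, endothelial and luminal sums given above also did not overlap between the 2 controls, and the part of these markers was not tested. Construct and doxycycline cannot be told apart in this comparison, which uses the same vector control libraries as that of USP22 overexpression.

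The responses to raised and lowered USP22 were compared directly. None of the 25 tested members differed between them by edgeR at an adjusted p under 0.05, where 10.9% of all tested genes did, although 4 members had an unadjusted p under 0.05. DESeq2 called 1 member and limma voom called 0. The lowest adjusted p was that of MT-ND4L, whose overexpression response exceeded its depletion response by 0.57 on the log2 scale (SE 0.19, adjusted p = 0.0722). MT-CYB differed by 0.52 (SE 0.20, adjusted p = 0.109), MT-TP by -0.67 (SE 0.26, adjusted p = 0.126) and MT-TY by -0.66 (SE 0.26, adjusted p = 0.133). Without vector control replicate 3, MT-ND4L was called higher (0.44, adjusted p = 0.0366) and MT-CO3 (-0.40, adjusted p = 0.000234) and MT-ND6 (-0.49, adjusted p = 0.00414) lower in the overexpression response, where 9.57% of all genes were higher and 10.2% lower. The count of called members was 2 without vector control replicate 2 or depletion replicate 3, and 1 without depletion replicate 2 or shRNA control replicate 2. For these fits, for DESeq2, for limma voom and for the unadjusted p, no share of all genes is given.

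Nuclear genes for transcription, replication and RNA processing in mitochondria were called in 2 cases on overexpression and in 20 on depletion. Of 55 listed genes 54 were in the table and tested. On overexpression none rose and 2 fell, where 1.51% of all tested genes rose and 2.6% fell. They were REXO2, which degrades short RNAs (log2 fold change -0.27, adjusted p = 0.0408), and TRMU, which thiolates transfer RNAs (-0.33, adjusted p = 0.0482). In the fit of all libraries 8 had an unadjusted p under 0.05, and DESeq2 and limma voom called 3 and 1, all lower. With the 6 compared libraries alone, or with any single overexpression, depletion or shRNA control library left out, edgeR called none, and without vector control replicate 1 or 3 it called 4. Of all tested genes 2.8% were higher and 4.05% lower without vector control replicate 3. For the other fits, for DESeq2, for limma voom and for the unadjusted p, no share of all genes is given. TFAM, which packages the mitochondrial genome and starts its transcription, averaged 154 ± 5.81 CPM after overexpression and 157 ± 32.2 CPM in the vector control (-0.03, adjusted p = 0.929), and stood at -0.19 (adjusted p = 0.0199) without vector control replicate 3.

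On depletion 17 of these 54 genes rose and 3 fell, where 9.4% of all tested genes rose and 10.4% fell, and their median was 0.14. MGME1, a nuclease of mitochondrial DNA maintenance, averaged 39.8 ± 1.81 CPM after depletion and 27.4 ± 1.36 CPM in the shRNA control (log2 fold change 0.54, adjusted p = 1.15e-05). PPARGC1B, a coactivator of genes for mitochondria, averaged 19.4 ± 1.74 CPM after depletion and 12.9 ± 0.852 CPM in the shRNA control (0.59, adjusted p = 4.61e-05), and its relative PPARGC1A, at 1.03 ± 0.222 CPM after depletion and 0.403 ± 0.0345 CPM in the shRNA control, rose by 1.34 (adjusted p = 0.00188). TRMT61B, which methylates mitochondrial transfer and ribosomal RNAs, rose by 0.39 (adjusted p = 0.000392), SSBP1, the single-stranded DNA binding protein of the mitochondrial replication fork, by 0.32 (0.00118), TFAM by 0.38 (0.0177) and the mRNA-stabilizing LRPPRC by 0.20 (0.0149). The RNA polymerase POLRMT (0.11, adjusted p = 0.6), its initiation factor TFB2M (0.16, 0.0887) and its elongation factor TEFM (0.10, 0.54) did not pass. MTERF4, which acts with a methyltransferase in assembly of the large ribosomal subunit, fell to 65.4 ± 4.86 CPM after depletion, against 114 ± 6.12 CPM in the shRNA control (-0.81, adjusted p = 3.33e-07). PNPT1, an RNA-degrading phosphorylase, fell by 0.23 (adjusted p = 0.0342) and MTO1, a transfer RNA modifier, by 0.17 (0.0492). Without vector control replicate 3 the number of called factors was 34, with 28 higher and 6 lower, where 15.2% of all tested genes were higher and 15.9% lower. It was 34 with the 6 compared libraries alone, 12 without depletion replicate 2 and 10 without shRNA control replicate 1, with no share of all genes given for those fits.

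Between the controls 43 of the 54 genes were lower and 2 higher in the shRNA control, where 21.3% and 21.7% of all tested genes were, with a median of -0.41. The fit without vector control replicate 3 had 44 lower and 2 higher, where 22.3% and 23.6% of all tested genes were. PPARGC1B (-1.11, adjusted p = 1.11e-08), MGME1 (adjusted p = 3.4e-09), SLIRP (-0.77, 4.57e-08) and LRPPRC (-0.64, 9.03e-08) had the smallest adjusted p among those lower, and MTERF4 (0.67, 4.5e-07) and MTERF2 (0.28, 0.0156) were the 2 higher. SLIRP is the partner of LRPPRC in keeping mitochondrial messenger RNAs stable, and MTERF2 belongs to the same family as MTERF4. The depletion comparison uses these shRNA control libraries too. Of the 54 factors, 1 was higher and 12 were lower in the overexpression response than in the depletion response, where 4.91% and 5.98% of all tested genes were.

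Nuclear copies of mitochondrial genes could take up or lend reads. The 389 rows named as such copies together held 0.00344 to 0.00813% of reads, far below the members, and 63 were tested. On overexpression 5 rose and none fell, where 1.51% of all tested genes rose, on depletion 3 rose and 4 fell, where 9.4% and 10.4% of all tested genes did, and between the controls 10 were higher and 1 lower in the shRNA control, where 21.7% and 21.3% were. Of the 5 that rose on overexpression, MTCO1P28, MTCO1P42 and MTND5P14, named here after their values were seen, were near the floor. They averaged 0.256, 0.171 and 0.340 CPM after overexpression, against 0.0887, 0 and 0.139 CPM in the vector control. MTCO1P42 had no reads in the vector control, so it passed the count filter only through other groups. With vector control replicate 3 left out, 4 rose and none fell on overexpression, where 2.8% and 4.05% of all tested genes did, and the median of the copies was 0.17, against 0.36 in the fit of all libraries. Between the controls that fit had 9 higher and 4 lower, where 23.6% of all tested genes were higher and 22.3% lower. MTATP6P1, the most abundant copy, averaged 28.9 ± 2.66 CPM after overexpression and 20.6 ± 2.12 CPM in the vector control (log2 fold change 0.49, adjusted p = 0.0145), and 27.4 ± 3.53 CPM after depletion and 23.8 ± 2.39 CPM in the shRNA control (0.20, adjusted p = 0.208). MTND2P28 rose on overexpression by 0.70 (adjusted p = 0.0487), MTCO1P12 had values of 0.31 (0.386; 0.085 without vector control replicate 3) on overexpression and 0.32 (0.252) on depletion, and MTCO3P38 rose on depletion by 0.86 (0.0179). MTND4P20 averaged 5.22 ± 0.206 CPM after overexpression and 5.25 ± 1.59 CPM in the vector control (-0.01, adjusted p = 0.982), and 7.53 ± 0.382 CPM after depletion and 10.3 ± 1.08 CPM in the shRNA control (-0.46, adjusted p = 0.0479). The summed level of the copies was lowest in vector control replicate 3, as for the protein-coding members. On overexpression 1 copy was called under a stricter filter (1 CPM or more in 3 libraries), 1 or 2 with any single overexpression library left out, 3 without depletion replicate 1 or any single shRNA control library, and with the 6 compared libraries alone none by edgeR, while in the fit of all libraries 11 had an unadjusted p under 0.05 and DESeq2 and limma voom called 4 and 3. On depletion 3 or 4 copies were called with any single one of the 6 compared libraries left out, and between the controls 20 without vector control replicate 2. No share of all genes is given beside the counts of the last 2 sentences.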

How the data were processed

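RNA of LNCaP cells was sequenced from 12 stranded total RNA libraries, 3 in each of 4 groups. The authors deposited unnormalized counts per gene, in 1 table of 63677 Ensembl IDs. The submitters' processing notes list the hg19 build, the aligner STAR 2.5.2a, the counter featureCounts 1.5.0-p3 and the package DESeq2 1.14.1. The annotation release, strand setting and handling of multiply mapped reads in the counting were not given in the sources used here. Reads can therefore be split between members, their nuclear copies and overlapping genes. GENCODE 29, of another build, served only for symbols, gene type, length, strand, order and reference sequence by ID, and no coordinates are given. A symbol was found for 81.9% of rows, and all 37 members had an entry.

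In R 4.3.3, edgeR 4.0.16 fitted 1 quasi-likelihood model of 4 groups with 8 residual degrees of freedom to the 26076 genes passing filterByExpr, scaled by TMM. Per contrast, the Benjamini-Hochberg adjustment covered every tested gene, and adjusted p-values below 0.05 were called. CPM rests on TMM-scaled library sizes, and percentages on the plain totals. Standard errors were derived from each fold change and the square root of its F. The fit was run on simulated counts in which no library was set apart as vector control replicate 3 is. Its outcome is not given here. Depth ran between 77607469 and 103690001 reads, and no pair of replicates agreed within sampling noise (lowest chi-square per degree of freedom 7.2). An exact permutation test of 3 against 3 libraries cannot go below 0.1, so none is given.

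The members and gene lists were chosen with earlier results of these data known. Named were all protein-coding and ribosomal members, transfer RNA members that were called or among the 4 most abundant, up to 4 nuclear factors per direction and contrast by adjusted p with 6 more set by name, and the 5 most abundant nuclear copies. Alternatives were RLE scaling, TMM without the mitochondrial rows, no filter, a stricter filter (1 CPM or more in 3 libraries), DESeq2 1.42.0, limma 3.58.1 voom with and without sample quality weights, only the libraries compared, a replicate block, and leaving out each of the 12 libraries.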

Additional observations from a re-analysis of the deposited data

Results flagged for a closer look

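For 13 of the 54 nuclear factors the response to USP22 overexpression differed from the response to USP22 depletion in the edgeR test of the difference itself, where 10.9% of all tested genes did. The 7 that the naming rule selects are given here, and the other 6 had adjusted p between 0.0313 and 0.0423. Differences are on the log2 scale, overexpression response minus depletion response. MTERF4 differed by 0.64 (adjusted p = 0.000343). MGME1 differed by -0.60 (adjusted p = 0.000336), PPARGC1B by -0.61 (0.00152), RNASEH1, which removes RNA from hybrids with DNA, by -0.53 (0.00649), SLIRP by -0.42 (0.00457), TRMT61B by -0.41 (0.00907) and SSBP1 by -0.28 (0.0413). In the fit of all libraries none of the 7 was called on overexpression and all were called on depletion. The naming rule also ranks by adjusted p within the depletion contrast, so calls on depletion partly follow from the selection. Of the other 6, TRIT1, MRM2, TWNK and GTPBP3 were also called higher on depletion. ESRRA and PUS1 were not (adjusted p of 0.532 and 0.0944), and none of the 6 was called on overexpression. The 7 named factors were also called between the controls, with the sign opposite to that on depletion. Both comparisons use the shRNA control libraries, on opposite sides, which by itself favours opposite signs. Between the controls 43 of the 54 factors were lower and 2 higher, where 21.3% and 21.7% of all tested genes were, so this is not particular to the 7. Each of the 7 kept an adjusted p under 0.05 for the difference without vector control replicate 3. The number of called factors was 21 in that fit, where 9.57% of all tested genes were higher and 10.2% lower. It was 6 to 8 when any single overexpression or shRNA control library, or depletion replicate 1 or 2, was left out, with no share of all genes given.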

How the results depend on the processing

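RLE scaling and TMM without the mitochondrial rows left every count of calls within 1.5 times its value, and no scaling, tool or left-out library turned the sign of the protein-coding median on overexpression or depletion. Of 1656 alternative values of single named members, 1441 kept direction and call, 122 gained a call, 38 lost one and 55 changed sign. On overexpression the number of tested members was 35 with no filter, 20 with DESeq2 and 23 with only the libraries compared, against 25 in the fit of all 12 libraries. Shares of all genes called are not given for these settings, so a higher count need not be particular to the members. Counts below are of members called, with the value in the fit of all 12 libraries first. On overexpression (5) they were 15 with no filter, 8 with DESeq2, 9 with quality weights (limma voom with sample quality weights) and 1 with only the libraries compared. On depletion (2) they were 14 with no filter, 11 with quality weights and 11 with only the libraries compared. Between the controls (5) they were 12 with no filter, 8 with quality weights and 2 with only the libraries compared. For the difference of responses (0), which needs all 4 groups, they were 10 with no filter, 1 with DESeq2 and 6 with quality weights. Leaving out 1 library gave 1 to 8, 0 to 12, 2 to 10 and 0 to 3 members in these 4 contrasts, and protein-coding medians of 0.28 to 0.55, 0.16 to 0.30, -0.05 to 0.37 and 0.06 to 0.33. The causes were not tested.

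Nuclear factors numbered, on overexpression (2), 6 with no filter, 1 with limma voom, 4 with quality weights and 0 with only the libraries compared. On depletion (20) they numbered 35 and 34 under these last 2 settings, and for the difference (13) 22 with quality weights. Leaving out 1 library gave 0 to 4, 10 to 34, 41 to 46 and 6 to 21. Nuclear copies on overexpression (5) numbered 1 under the stricter filter (1 CPM or more in 3 libraries), 3 with limma voom and 0 with only the libraries compared. On depletion (7) that filter gave 1, and between the controls (11) it gave 1 and no filter 26. Leaving out 1 library gave 1 to 5, 3 to 9 and 8 to 20 copies. Beside these counts of factors and copies, too, no share of all genes is given.

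Signs turned for 14 values with quality weights, for 12 without vector control replicate 3 and for at most 5 under any other setting. None of these values was called in the fit of all libraries. With quality weights MT-TC became 0.18 on overexpression, with MT-TY 0.11 and MT-ND6 -0.12, and on depletion MT-RNR1 became -0.17 and MT-RNR2 -0.18. Between the controls MT-ND1 became -0.031, MT-ND2 -0.054, MT-CO2 -0.11, MT-ATP8 -0.12 and MT-ND3 -0.024, and MT-CO1 became 0.012 under the stricter filter. For the difference MT-CO1 became -0.032, MT-CO2 -0.012, MT-ATP8 -0.16 and MT-ND3 -0.096. Leaving out 1 library gave ranges across 0 for 23 values. On overexpression these were MT-TC (-0.31 to 0.19), MT-TY (-0.30 to 0.14), MT-ND6 (-0.17 to 0.26) and MT-TP (-0.081 to 0.17). On depletion they were MT-RNR1 (-0.21 to 0.68), MT-RNR2 (-0.17 to 0.47), MT-ND4L (-0.012 to 0.28) and MT-CYB (-0.066 to 0.17). Between the controls they were MT-RNR1 (-0.14 to 0.94), MT-ND1 (-0.024 to 0.22), MT-ND2 (-0.048 to 0.24), MT-TN (-0.007 to 0.18), MT-CO1 (-0.17 to 0.078), MT-CO2 (-0.12 to 0.12), MT-ATP8 (-0.14 to 0.38), MT-CO3 (-0.26 to 0.069), MT-ND3 (-0.054 to 0.37) and MT-ND6 (-0.38 to 0.05). For the difference they were MT-TF (-0.25 to 0.27), MT-CO1 (-0.048 to 0.20), MT-CO2 (-0.046 to 0.19), MT-ATP8 (-0.25 to 0.28) and MT-ND3 (-0.15 to 0.28).

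Replicates share numbers across groups. Deviations of same-numbered libraries over all tested genes had correlations of -0.02 to 0.08, and those of differently numbered libraries -0.09 to 0.07. Such values over all genes cannot exclude a pairing by number. With a replicate block 5, 3, 5 and 0 members were called in the 4 contrasts, 2 nuclear copies on overexpression, and the protein-coding medians were 0.45, 0.22, 0.16 and 0.21. With at most 11 reads in any library, 12 transfer RNA genes could not be tested, and with 3 libraries a group the precision of the rest is limited.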
